A study of Homo sapiens with 42 samples.

Results

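The comparison described here was selumetinib alone against its vehicle, dimethyl sulfoxide (DMSO), in NOMO1 cells. It rested on the 3 NOMO1 libraries labelled as selumetinib and the 3 labelled as DMSO day 6, which are 6 of the 42 RNA-seq libraries of the series, and it covered every gene that could be tested. The series treated OCI-AML3 and NOMO1, both established human acute myeloid leukaemia cell lines, with the menin inhibitor VTP-50469, the MEK inhibitor selumetinib, both drugs or DMSO, with 3 libraries per group. NOMO1 has monocytic features and is labelled as KMT2A-rearranged (KMT2A-r), so all NOMO1 groups share that genotype, and they stand for 1 cell line. Each drug was used at 100 nM. The treatment notes give 1 day of selumetinib, as does the name of each selumetinib library, but the titles of selumetinib replicates 2 and 3 say day 3. DMSO was collected at day 3 and day 6 and no day 1 DMSO group was analysed here, so that drug and time in culture cannot be told apart in this comparison. DMSO day 6 was the control because mitochondrial transcripts made up 17.8% ± 0.20 of counts (SD, n = 3) in the DMSO day 3 libraries. Named genes whose call or direction changed with this choice, and the counts of most gene lists, are given with both controls. Nothing in the labels says that replicates came from separate cultures, so p-values measure a spread between libraries of a group that may be technical. For the NOMO1 comparisons this spread was estimated over all 21 NOMO1 libraries, those of the other treatments included.

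MEK1 and MEK2 are the kinases that phosphorylate and switch on ERK, the last kinase of the cascade that runs from growth factor receptors through RAS and RAF. Active ERK drives immediate early transcription factors such as EGR1 and FOS, the ETS factors ETV4 and ETV5 and cyclin D1, and it also induces its own brakes, the dual-specificity phosphatases (DUSP) and the Sprouty proteins. In myeloid leukaemia RAS pathway mutations keep this cascade active, and ERK output is tied to growth, to nucleotide and ribosome synthesis and to the state of myeloid maturation.

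The selumetinib libraries held 15264862 to 21792540 counts and the DMSO day 6 libraries 21827290 to 29168628. Mitochondrial transcripts took 5.81% ± 0.76 of counts under selumetinib (SD, n = 3) and 3.17% ± 0.48 in DMSO day 6, and the groups did not overlap. Of 12 marker genes of monocytic leukaemia lines, 11 had a mean of at least 5 CPM (a gene's count scaled to its library's total, without TMM in this paragraph alone) in both groups. The other, CD14, averaged 0.45 CPM under selumetinib and 2.61 in DMSO. These markers do not single out NOMO1, and its KMT2A-r label was not tested. Marker sums of other lineages were alike in the 2 groups for erythroid cells (19.1 to 19.9 CPM under selumetinib and 18.3 to 19.4 in DMSO, with 8 of 12 genes at 0 in both) and for B cells (32.3 to 40.0 and 32.4 to 33.3 CPM). T and NK cell markers, most of whose counts came from CD4 and NKG7, summed to 367 to 408 CPM under selumetinib and 330.0 to 339 in DMSO. CD4 averaged 259 CPM under selumetinib and 176 in DMSO, NKG7 108 and 122, and CD3D 18.7 and 28.3, with CD2 and KLRD1 at 0 in both. Epithelial and stromal markers, most of whose counts came from KRT8 and COL1A1, summed to 445 to 459 CPM under selumetinib and 215 to 226 in DMSO, with CDH1, COL3A1 and KRT19 at 0 in both. KRT8 averaged 285 CPM under selumetinib and 135.5 in DMSO, COL1A1 122 and 24.97, and PDGFRB 2.37 and 1.28. The means of KRT18 (23.6 and 30.1), VIM (16.7 and 22.0), EPCAM (3.64 and 5.52) and COL1A2 (0 and 0.0975) were lower under selumetinib.

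More genes fell than rose under selumetinib, most of them by less than 1 on the log2 scale. Of 16569 genes tested with edgeR's quasi-likelihood test, 2177 were called higher (13.1%) and 3150 lower (19%) at a Benjamini-Hochberg adjusted p of 0.05. The median log2 fold change of all genes tested was 0, and that of called genes was 0.56 in size. Changes over 1 on the log2 scale were found for 611 higher and 506 lower genes, and changes over 2 for 147 and 194. The 3 selumetinib values and the 3 DMSO values did not overlap for 51.8% of all genes tested, which is the background for each statement on overlap made for a single gene. Against DMSO day 3, a control whose libraries stand apart, 4792 genes were called higher (28.9%) and 4170 lower (25.2%).

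**Figure D1:**
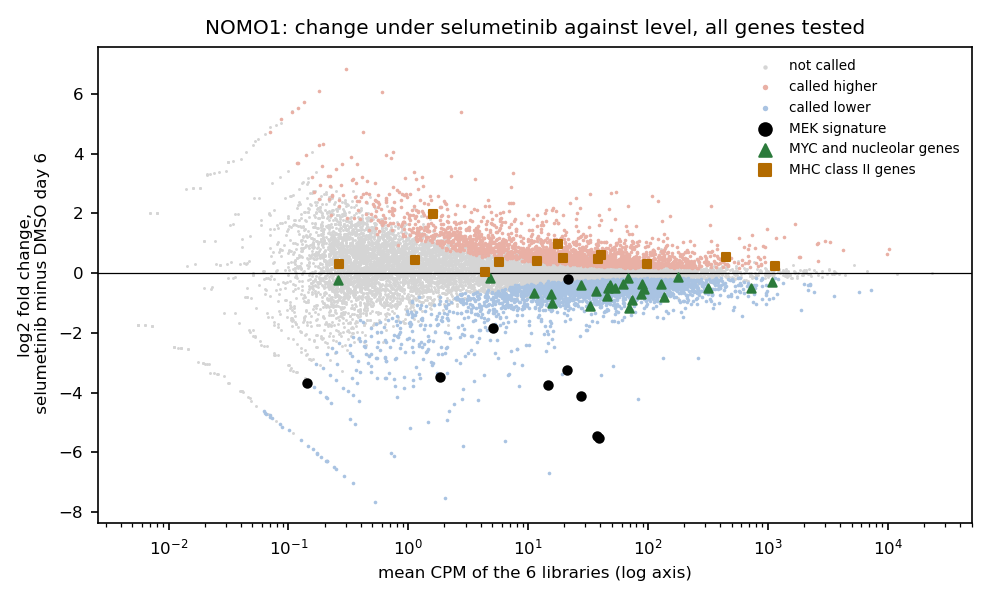
Log2 fold change, selumetinib minus DMSO day 6, plotted against the mean CPM of the 6 libraries (log axis) for the genes tested, with 2177 genes called higher in red and 3150 called lower in blue. Black circles are the 9 tested genes of the MEK signature (median -3.68), green triangles the 25 MYC and nucleolar genes (median -0.50) and brown squares the 13 MHC class II genes (median 0.43).

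Genes that report MEK activity fell steeply. The MEK signature is a list of 10 genes that ERK induces, and of its 9 tested members 8 were lower and none was higher, against 19% of all genes called lower. Its median log2 fold change was -3.68, and against DMSO day 3 it was -3.55, again with 8 of 9 lower. ETV5 (chr3:186046308-186110318, minus strand in GENCODE's annotation of GRCh38), an ETS transcription factor downstream of ERK, read 2.15, 1.52 and 1.203 CPM in the 3 selumetinib libraries and 75.9, 70.9 and 71.7 CPM in the 3 DMSO libraries. All 3 selumetinib values lay far under all 3 DMSO values, and the log2 fold change was -5.46 ± 0.21 (SE; adjusted p = 6.61e-14). The related factor ETV4 read 1.86, 0.606 and 2.26 CPM under selumetinib and 78.3, 75.8 and 73.2 in DMSO, a log2 fold change of -5.53 ± 0.22 (adjusted p = 4.29e-14). CCND1 (chr11:69641087-69654474, plus strand), which encodes cyclin D1 and links ERK to entry into the cell cycle, read 2.83, 3.03 and 3.13 CPM under selumetinib against 47.1, 54.9 and 53.3 in DMSO. Its level was 17.3-fold lower, with a log2 fold change of -4.11 ± 0.12 (adjusted p = 6.42e-19). PHLDA1, a death-associated ERK target, fell less, from 8.004 ± 1.57 CPM (SD, n = 3) to 2.26 ± 0.722 (log2 fold change -1.85 ± 0.40, adjusted p = 0.00198). EPHA2, an ephrin receptor named here after its values were seen, was called lower on 1 count in all selumetinib libraries together and 21 in DMSO, and it was lost from the calls without selumetinib replicate 2 or 3 or DMSO replicate 1 or 2, with an adjusted p of up to 0.13. SPRY2 was the tested member not called.

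The brakes on ERK fell with its targets, though not all of them. Of 19 tested phosphatases and Sprouty family inhibitors, 8 were lower and 1 was higher, with a median of -0.77 (4 of these genes are also in the MEK signature), and against DMSO day 3 8 were lower and 4 higher. DUSP6, the phosphatase that inactivates ERK in the cytoplasm, read 5.06, 4.002 and 2.98 CPM under selumetinib and 36.9, 38.5 and 38.8 in DMSO. The drop was 9.401-fold, with a log2 fold change of -3.23 ± 0.17 (adjusted p = 4.05e-12). SPRY4, an inhibitor of receptor signalling to RAS, read 2.07, 2.06 and 1.88 CPM against 31.9, 27.5 and 21.9 (log2 fold change -3.75 ± 0.37, adjusted p = 1.07e-06). SPRED2, which blocks the activation of RAF, kept more of its level and read 25.96, 21.9 and 25.98 CPM against 57.9, 54.3 and 51.5 (log2 fold change -1.15 ± 0.12, adjusted p = 3.01e-08). The nuclear phosphatases DUSP4 and DUSP5 fell by 3.49 and 1.58 on the log2 scale, and SPRY1 fell by 1.07, with no overlap between the groups for any of the 3.

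**Figure D2:**
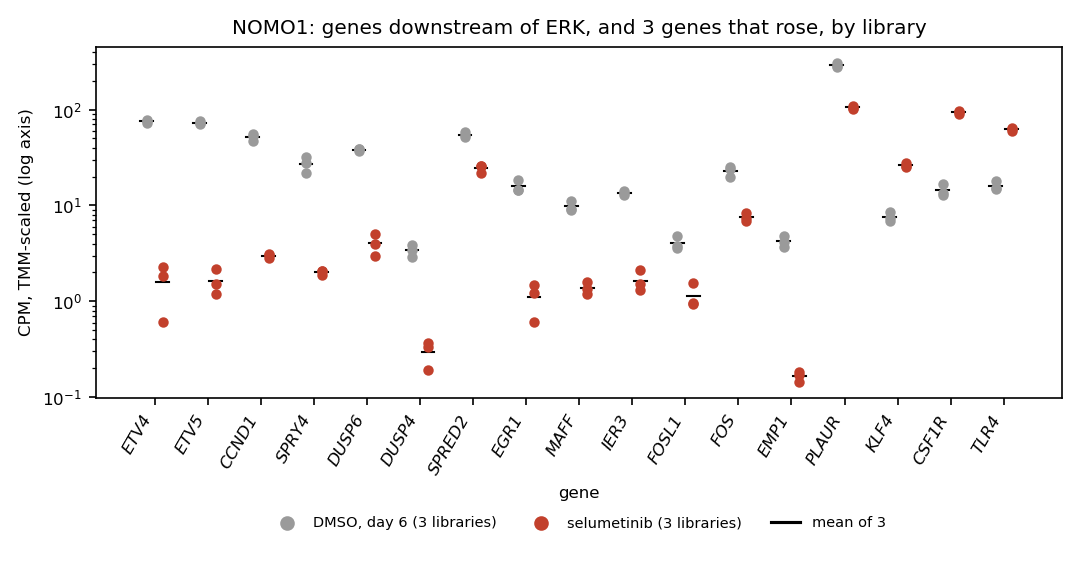
CPM (log axis) of 17 genes in the 3 DMSO day 6 libraries (grey) and the 3 selumetinib libraries (red), with the mean as a bar. The 14 genes from ETV4 to PLAUR lay lower in every selumetinib library than in any DMSO library, and KLF4, CSF1R and TLR4 lay higher.

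Immediate early genes, the first to be transcribed when ERK is switched on, fell more often than they rose. Of 29 tested, 12 were lower (41.4%) and 4 higher (13.8%), beside 19% and 13.1% of all genes, with a median of -0.41. The number higher was 2 without selumetinib replicate 1 or DMSO replicate 3. Against DMSO day 3 14 were lower and 7 higher, where 25.2% and 28.9% of all genes were. EGR1, a zinc finger factor induced within minutes of ERK activation, read 1.22, 0.606 and 1.49 CPM under selumetinib and 18.2, 14.6 and 14.5 in DMSO (log2 fold change -3.78 ± 0.67, adjusted p = 0.000492). MAFF, a small MAF factor, read 1.18, 1.58 and 1.35 CPM against 11.1, 9.24 and 9.06 (log2 fold change -2.85 ± 0.27, adjusted p = 6.78e-09). FOS, a partner in the AP-1 dimer, read 7.39, 6.91 and 8.27 CPM against 25.4, 24.0 and 19.9 (log2 fold change -1.61 ± 0.46, adjusted p = 0.0134), and its relative FOSL1 fell by 1.82. ZFP36L1, which destabilises AU-rich messenger RNAs, fell by 2.40. IER3, an early response gene of cell survival, read 2.1103, 1.52 and 1.299 CPM against 14.3, 12.9 and 13.4 (log2 fold change -3.01 ± 0.54). KLF4, a Kruppel-like factor linked to monocyte maturation, went the other way and read 25.7, 25.1 and 27.9 CPM against 7.45, 6.85 and 8.64 (log2 fold change 1.78 ± 0.27, adjusted p = 5.39e-05). MCL1, the survival gene in the list, was lower against DMSO day 6 (-0.49 ± 0.07, adjusted p = 4.79e-06) but not against DMSO day 3 (-0.0029, adjusted p = 0.98).

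The letters upstream of the called genes of these lists, the 4 immediate early genes that rose included, were compared as a description. RefSeq promoter windows of GRCh38.p14, from 250 bases before to 50 bases after the start, were matched by symbol for 4 of the 8 called MEK signature genes and 12 of the 16 called immediate early genes. Both strands were searched for an AP-1 motif (TGANTCA), an ETS motif (CCGGAAGT), a CRE motif (TGACGTCA), an E-box (CACGTG) and a loose CArG-shaped frame (CC and GG with any 6 bases between them), none of which contains another, although the loose frame can overlap the rest. Over all 35116 windows 7.71%, 4.14%, 1.85%, 7.26% and 78.2% held them. None of the 16 matched windows held the AP-1 or ETS letters, 1 of 4 and 1 of 12 held the CRE letters, 0 of 4 and 2 of 12 the E-box, and 2 of 4 and 12 of 12 the loose frame. The CArG box, the stricter form of that frame with A or T at its 6 inner positions, was added after the windows had been read, and it was found in 1.29% of all windows and in 1 of the 16, EGR1. The 250 bases upstream of EGR1, MAFF and DUSP6 are shown as the windows with a pair of CArG boxes, with a CRE and an E-box, and with none of the motifs. They lie, in GRCh38.p14, on the plus strand at chr5:138465229-138465478, on the plus strand at chr22:38201744-38201993 and on the minus strand at chr12:89352502-89352751, and capitals mark CArG, CRE and E-box letters (the loose frame, also found in MAFF, is not marked).
EGR1: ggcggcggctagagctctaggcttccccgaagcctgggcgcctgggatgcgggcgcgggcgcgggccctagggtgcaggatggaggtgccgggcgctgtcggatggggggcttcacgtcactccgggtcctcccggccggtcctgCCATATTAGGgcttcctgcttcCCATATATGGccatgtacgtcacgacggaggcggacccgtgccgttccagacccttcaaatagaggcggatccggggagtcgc
MAFF: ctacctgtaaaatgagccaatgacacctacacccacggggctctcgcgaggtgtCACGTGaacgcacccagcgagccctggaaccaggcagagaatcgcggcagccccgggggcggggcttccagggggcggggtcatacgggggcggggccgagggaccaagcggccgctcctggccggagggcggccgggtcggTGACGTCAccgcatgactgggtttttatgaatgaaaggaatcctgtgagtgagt
DUSP6: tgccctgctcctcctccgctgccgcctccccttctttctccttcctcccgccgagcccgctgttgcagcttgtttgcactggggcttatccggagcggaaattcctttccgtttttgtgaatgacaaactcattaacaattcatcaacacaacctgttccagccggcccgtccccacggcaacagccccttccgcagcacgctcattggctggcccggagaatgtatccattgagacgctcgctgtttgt
The CArG boxes of EGR1 begin 105 and 83 bases before the start. A match is a description of letters and says nothing on which factor binds there.

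Other genes known as ERK outputs in many cell types were lower in 14 of 15 calls. Of 28 tested, 14 were lower and 1 was higher, with a median of -0.80, and against DMSO day 3 15 were lower and 5 higher. EMP1, a membrane protein gene, read 0.169, 0.182 and 0.144 CPM under selumetinib against 4.81, 3.67 and 4.15 (log2 fold change -4.63 ± 0.48, adjusted p = 1.39e-07). PLAUR, the urokinase receptor, read 102, 104 and 109 CPM against 285, 306 and 276 (log2 fold change -1.46 ± 0.20, adjusted p = 3.93e-05). MAP2K3, a kinase of the parallel p38 cascade, fell by 0.57. RUNX1, a myeloid transcription factor, was the member that rose, from 106, 105 and 101 CPM in DMSO to 150.3, 149 and 148 under selumetinib (log2 fold change 0.52 ± 0.07).

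Upstream of ERK, receptor genes rose more often than they fell. Of 26 tested receptors of growth factors and cytokines, 12 were higher, against 13.1% of all genes, and 2 were lower. The number higher was 7 without selumetinib replicate 1 or 3, and against DMSO day 3 13 were higher and 2 lower. CSF1R (chr5:150053291-150113372, minus strand), the receptor for macrophage colony-stimulating factor, read 89.3, 97.1 and 94.1 CPM under selumetinib and 12.7, 13.6 and 16.8 in DMSO. Its rise was 6.497-fold, with a log2 fold change of 2.70 ± 0.11 (adjusted p = 6.35e-16). IL13RA1, a chain of the interleukin-13 receptor, read 73.1, 81.4 and 81.7 CPM against 35.8, 41.3 and 35.6 (log2 fold change 1.07 ± 0.08), and CSF3R, the granulocyte colony-stimulating factor receptor, read 689.6, 697 and 731 against 498, 526 and 528 (0.45 ± 0.06). IL6R, which encodes the interleukin-6 receptor, rose by 0.66 on the same scale. Within the cascade from RAS to ERK, 6 of 29 genes were higher and 4 lower, against 13.1% and 19% of all genes, and the number higher was 3 without selumetinib replicate 3, DMSO replicate 1 or DMSO replicate 2. Against DMSO day 3 18 were higher and 5 lower, where 28.9% and 25.2% of all genes were. RASGRP4, a RAS exchange factor of myeloid cells, rose by 0.72 and MRAS by 0.37. PTPN11, the phosphatase SHP2 that relays receptor signals to RAS, was lower against DMSO day 6 (-0.40 ± 0.07) and higher against DMSO day 3 (0.39 ± 0.07). Among 18 SOCS, PIM and related feedback genes 7 were lower and 1 higher (7 and 7 against DMSO day 3), and the lower ones included PIM1, a survival kinase (31.7, 28.2 and 28.5 CPM against 49.9, 49.4 and 54.1, log2 fold change -0.79 ± 0.10), and PIM3 (-0.71 ± 0.11). Against DMSO day 3 the same list had 7 higher and 7 lower.

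MYC and the genes of ribosome building fell together by modest amounts. Of 25 MYC and nucleolar genes, 21 were lower and none higher, with a median of -0.50, and against DMSO day 3 the counts were 16 lower and 2 higher. MYC, the growth-promoting transcription factor, read 253, 248 and 277 CPM under selumetinib and 366, 361 and 378 in DMSO, without overlap (log2 fold change -0.50 ± 0.07, adjusted p = 1.07e-06). The change was smaller against DMSO day 3, at -0.16 ± 0.07. BOP1, which acts in the maturation of large subunit ribosomal RNA, read 42.9, 51.1 and 59.5 CPM against 92.3, 91.9 and 104 (log2 fold change -0.91 ± 0.09). LYAR, a nucleolar protein gene, fell by 1.10. SRM, spermidine synthase, read 40.9, 43.2 and 45.6 CPM against 97.3, 92.6 and 98.7 (log2 fold change -1.15 ± 0.12, adjusted p = 1.37e-07).

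Polyamine and nucleotide synthesis genes showed the same direction, with 16 of 21 lower and none higher (median -0.45; 13 lower and 2 higher against DMSO day 3). PRPS1, which makes the ribose donor of nucleotide synthesis, read 28.8, 28.4 and 31.8 CPM under selumetinib and 76.3, 73.1 and 80.6 in DMSO (log2 fold change -1.37 ± 0.12, adjusted p = 3.57e-09). CTPS1, the enzyme of CTP synthesis, read 21.1, 18.4 and 21.7 CPM against 43.3, 41.2 and 48.96 (-1.12 ± 0.11). CAD and PAICS, of pyrimidine and purine synthesis, fell by 0.99 and 0.94 on the log2 scale. The groups did not overlap for any of these 4 genes. None of 35 cytosolic ribosomal protein genes was called in either direction by edgeR (median 0.01; 3 had an unadjusted p under 0.05, DESeq2 called 2 higher and the fit of the 6 libraries alone 5), whereas 31 of them were lower against DMSO day 3.

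Chaperone genes were also lower with both controls. Of 15 heat shock and chaperone genes 13 were lower and none higher, with a median of -0.65, and against DMSO day 3 the number lower was 12. HSPA8, the constitutive cytosolic HSP70, read 536, 552 and 480.1 CPM under selumetinib and 1087, 1004 and 1114 in DMSO (log2 fold change -1.03 ± 0.09, adjusted p = 2.79e-09). HSPH1, its nucleotide exchange partner, read 95.3, 98.97 and 92.8 CPM against 228, 224 and 229 (-1.25 ± 0.13), and HSPD1, the mitochondrial HSP60, fell by 0.78. HSPA1B, an inducible HSP70, fell by 1.22, but reads could be split with its near-identical neighbour HSPA1A, so the value is uncertain.

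Cell cycle genes were lower against DMSO day 6, and this depended on the control. Of 34 DNA replication genes 32 were lower and none higher (median -0.60), whereas against DMSO day 3 13 were lower and 9 higher (median 0.00). RRM2, the ribonucleotide reductase subunit that limits nucleotide supply in S phase, read 40.3, 45.5 and 48.4 CPM under selumetinib and 117, 119 and 97.8 in DMSO (log2 fold change -1.32 ± 0.09, adjusted p = 4.40e-11), and it was lower against DMSO day 3 as well (-0.84 ± 0.10). RFC4, a clamp loader subunit, read 32.5, 29.7 and 39.02 CPM against 68.5, 74.3 and 70.3 (-1.07 ± 0.10; -1.12 ± 0.10 against DMSO day 3). MCM2, a subunit of the replicative helicase, changed sign, from -0.70 ± 0.08 against DMSO day 6 to 1.71 ± 0.08 against DMSO day 3. Of 28 mitosis genes 21 were lower and none higher, against 10 lower and 3 higher with DMSO day 3. MKI67, the proliferation marker Ki-67, read 90.2, 97.8 and 85.7 CPM under selumetinib and 164, 154 and 145 in DMSO (-0.76 ± 0.10; -0.47 ± 0.10 against DMSO day 3). AURKB, a mitotic kinase, fell by 0.64 against DMSO day 6, while TOP2A, a topoisomerase of dividing cells, went from -0.78 ± 0.08 to 0.78 ± 0.08. In DMSO itself, day 6 differed from day 3 in 51% of genes.

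Among 24 cyclins, their kinases and their inhibitors, 16 were lower and 3 higher, against 8 lower and 10 higher with DMSO day 3. CDC25A, the phosphatase that releases S phase kinases, read 27.4, 30.4 and 30.5 CPM under selumetinib and 56.9, 52.5 and 55.1 in DMSO (log2 fold change -0.90 ± 0.11; -1.01 ± 0.11 against DMSO day 3). E2F1, the transcription factor of the G1 to S transition, fell by 0.83 and by 1.20 against the 2 controls. The mitotic genes CDK1 and CCNA2 fell by 0.88 and 0.74 against DMSO day 6, and by 0.53 and 0.39 against DMSO day 3. CDK6, a kinase partner of cyclin D, was one that rose, from 706, 690.4 and 648 CPM in DMSO to 996, 989 and 969 under selumetinib (0.53 ± 0.09; 1.12 ± 0.09 against DMSO day 3).

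**Figure D3:**
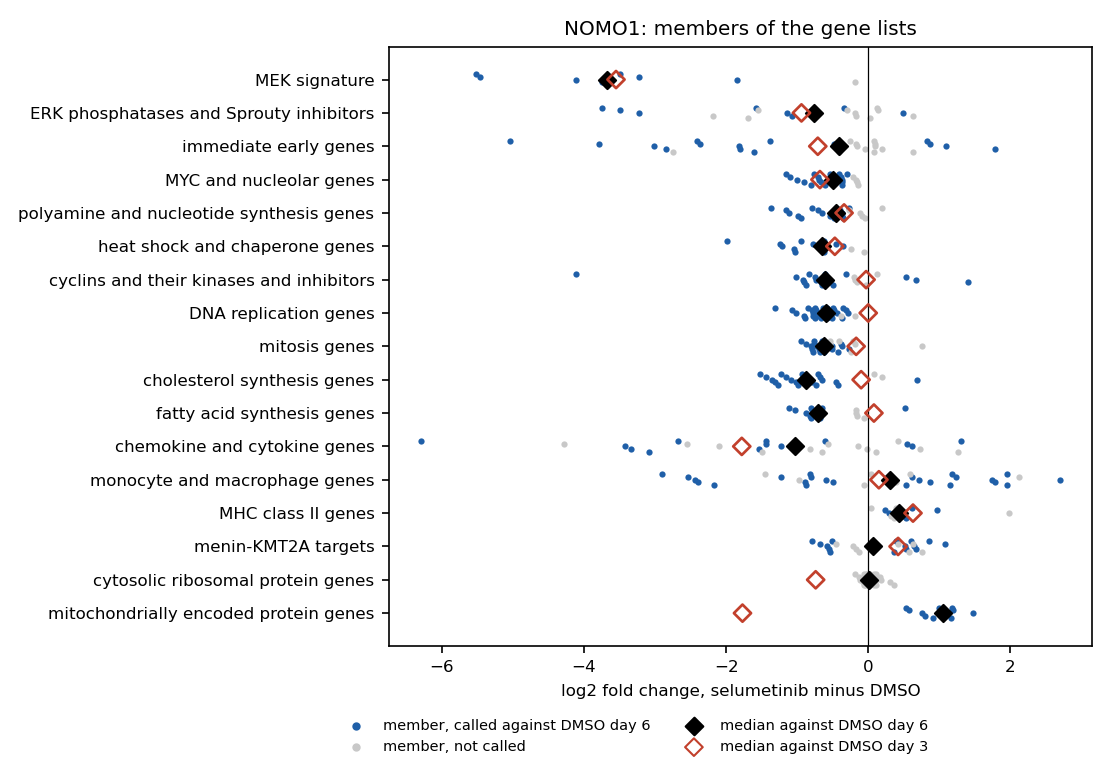
Log2 fold changes of the members of 17 gene lists, selumetinib minus DMSO day 6, with called members in blue, members not called in grey, the list median as a black diamond and the median against DMSO day 3 as an open red diamond. The diamonds lay close together for the MEK signature (-3.68 and -3.55) and far apart for DNA replication (-0.60 and 0.00), cholesterol synthesis (-0.88 and -0.10) and mitochondrially encoded genes (1.05 and -1.77).

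Most lipid synthesis genes were lower against DMSO day 6. Of 23 tested cholesterol synthesis genes 20 were lower and 1 higher (median -0.88), and of 16 fatty acid synthesis genes 11 were lower and 1 higher (median -0.71). With DMSO day 3 as the control the counts were 9 lower and 7 higher, and 2 lower and 5 higher. INSIG1, the sterol sensor that holds SREBP in the endoplasmic reticulum, read 66.1, 66.3 and 73.7 CPM under selumetinib and 191, 218 and 182 in DMSO (log2 fold change -1.52 ± 0.12, adjusted p = 7.36e-10). DHCR7, which catalyses the last step to cholesterol, read 103, 107 and 117 CPM against 280.0, 283 and 247 (-1.31 ± 0.08). INSIG1, DHCR7, MVD and EBP kept their direction against DMSO day 3, at -1.19, -0.71, -1.50 and -2.38. The desaturase gene FADS1 went from -0.81 ± 0.08 to 0.86 ± 0.09. FASN, fatty acid synthase, read 315, 332 and 331 CPM against 750.1, 712 and 665 (-1.12 ± 0.09), but neither FASN (-0.13, adjusted p = 0.254) nor the desaturase SCD (-0.16, adjusted p = 0.121) passed the test against DMSO day 3.

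Most genes of glucose use fell and TXNIP rose. Of 24 genes of glucose uptake and glycolysis 15 were lower and 1 higher (median -0.41; 11 lower and 8 higher against DMSO day 3). ENO1, enolase, read 2475, 2412 and 3035 CPM under selumetinib and 4317, 4988 and 4141 in DMSO (log2 fold change -0.76 ± 0.09). The lactate exporter SLC16A1 fell by 0.71. Of 16 hypoxia genes 7 were lower and 1 higher, beside 19% and 13.1% of all genes. Against DMSO day 3 the counts were 8 and 3, where 25.2% and 28.9% of all genes were lower and higher. DMSO replicate 2 was the highest library for each of the 3 hypoxia genes named here. ADM, adrenomedullin, read 3.55, 4.61 and 3.85 CPM against 22.5, 33.1 and 17.3 (-2.61 ± 0.31), the glucose transporter gene SLC2A1 read 11.5, 13.04 and 19.1 against 41.8, 68.6 and 39.3 (-1.78 ± 0.29), and LDHA, lactate dehydrogenase, read 420.3, 463 and 646 against 915, 1300.4 and 793 (-0.98 ± 0.17). LDHA missed the threshold in the fit of the 6 libraries alone, at an adjusted p of 0.0503.

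TXNIP, which restrains glucose uptake, read 359.6, 317 and 232 CPM under selumetinib and 151, 135 and 148 in DMSO, with selumetinib replicate 3 the lowest of its group and still over each DMSO library (log2 fold change 1.07 ± 0.10, adjusted p = 2.20e-08). Of the 19 genes of its list 9 were higher and 4 lower, beside 13.1% and 19% of all genes. Against DMSO day 3 the counts were 11 and 2, where 28.9% and 25.2% of all genes were higher and lower. MXI1, a MYC antagonist, was among the 4 lower against DMSO day 6 (-1.08 ± 0.13). Of 24 amino acid and protein stress genes 10 were lower and 2 higher (median -0.60), and 15 were lower and 3 higher against DMSO day 3, beside the same shares of all genes. TRIB3, a stress pseudokinase gene, read 28.8, 21.3 and 30.6 CPM against 81.7, 91.2 and 79.8 (-1.64 ± 0.32). CEBPB, a leucine zipper factor of stress and of monocytes, fell by 0.71. CPT1A, of the lipid handling list and the gate of mitochondrial fatty acid oxidation, was lower against DMSO day 6 (-0.97 ± 0.14) but did not pass against DMSO day 3 (-0.29, adjusted p = 0.0831).

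Monocyte and macrophage genes moved in both directions. Of 33 tested 13 were higher and 12 lower (median 0.30), where all genes gave 13.1% and 19%, and the counts were 13 and 11 against DMSO day 3. TLR4, the lipopolysaccharide receptor, read 62.04, 60.2 and 64.5 CPM under selumetinib and 14.9, 18.1 and 15.3 in DMSO (log2 fold change 1.95 ± 0.09, adjusted p = 1.97e-14). CD14, its co-receptor, went the opposite way at a low level and read 0.464, 0.303 and 0.481 CPM against 2.297, 2.75 and 2.42 (-2.54 ± 0.30, adjusted p = 4.02e-07). MYD88, the adaptor of these receptors, rose by 1.06, and TLR2 fell by 0.88. S100A9 and S100A8, the calcium-binding pair of calprotectin, both fell. S100A9 read 1049, 1199 and 1122 CPM against 2637, 2552 and 2708 (-1.23 ± 0.09), and S100A8 read 711, 793 and 635 against 1402, 1216 and 1334 (-0.89 ± 0.09). LYZ, lysozyme, read 2123, 2139.7 and 2252 CPM against 1496, 1520.4 and 1483 and so rose (0.53 ± 0.10), as did the nuclear antigen gene MNDA (1.15) and the inhibitory receptor gene LILRB4 (1.17). ITGAM, the integrin chain CD11b, was lower against DMSO day 6 (-0.60 ± 0.12) and not called against DMSO day 3 (0.15, adjusted p = 0.31). In bulk RNA fewer cells of a kind and less RNA per cell cannot be told apart.

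In several further lists genes were called in both directions, beside 13.1% higher and 19% lower of all genes (28.9% and 25.2% against DMSO day 3). The medians of the NADPH oxidase and neutrophil lists changed sign with the control. Of the NADPH oxidase list, 2 of 9 tested genes were higher and 1 lower (median 0.10), whereas 2 were higher and 4 lower against DMSO day 3 (median -0.80), and CYBB, the catalytic subunit in phagocytes, rose by 0.71. Of 20 antioxidant genes 6 were higher and 5 lower (11 and 6 against DMSO day 3), with GCLC, of glutathione synthesis, at 0.61 and PRDX1, a peroxiredoxin, at -0.94. Among 21 neutrophil and granule genes 7 were higher and 1 lower (median 0.28), but 5 were higher and 4 lower against DMSO day 3 (median -0.07). CEBPE, a factor of granulocyte maturation, read 101, 91.4 and 100.1 CPM under selumetinib and 53.2, 54.9 and 60.02 in DMSO (0.80 ± 0.11), and ORM1 rose by 0.65, a value that may include reads of its near-identical neighbour ORM2. Of 23 myeloid transcription factors 8 were higher and 8 lower (11 and 9 against DMSO day 3). GATA2, a factor of stem cells and mast cells, read 10.9, 10.7 and 10.3 CPM under selumetinib and 86.6, 98.1 and 89.6 in DMSO (-3.11 ± 0.16, adjusted p = 8.99e-12). GFI1B, a repressor of erythroid and megakaryocytic cells, rose from 6.197, 5.46 and 6.22 to 17.3, 19.4 and 16.98 CPM (1.59 ± 0.17).

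**Figure D4:**
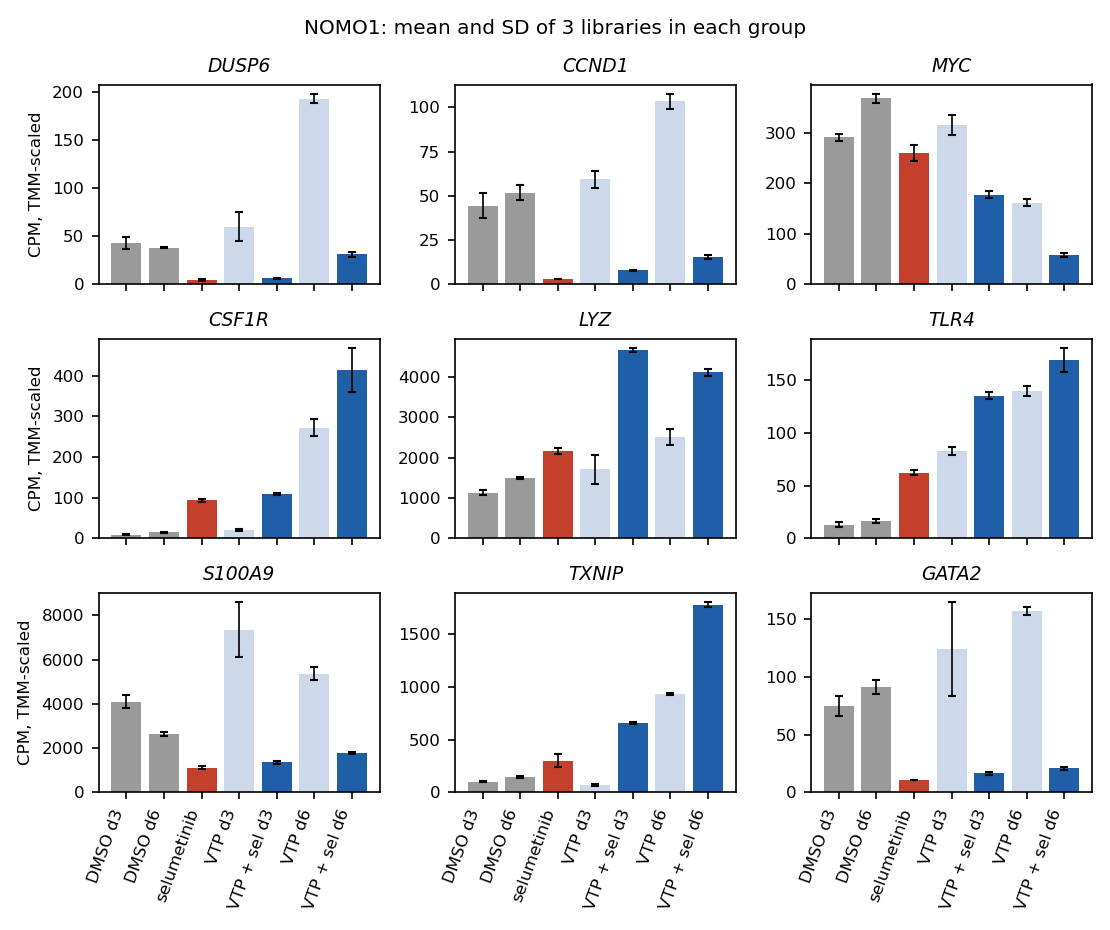
Mean CPM with SD over 3 libraries (bars and error bars) of 9 genes in the 7 NOMO1 groups, with DMSO in grey, selumetinib alone in red, VTP-50469 in pale blue and both drugs in dark blue. GATA2 was lower in each group that received selumetinib than in its partner without it, DUSP6 stood at 193 ± 4.78 CPM under VTP-50469 at day 6 and 30.98 ± 2.39 with both drugs, and CSF1R was higher under selumetinib (93.5 ± 3.97) than in DMSO day 6 (14.4 ± 2.17) and higher again under both drugs at day 6 (414 ± 54.4).

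Inflammatory messengers fell more often than they rose. Of 26 tested chemokine and cytokine genes 10 were lower and 3 higher, with a median of -1.03, or -0.93 with genes at 0 taken at their bound, and 13 were lower and 3 higher against DMSO day 3. CXCL8, interleukin-8, read 5.36, 6.49 and 9.04 CPM under selumetinib and 68.1, 95.9 and 58.6 in DMSO (log2 fold change -3.42 ± 0.61, adjusted p = 0.000531). TNF read 2.19, 0.9702 and 2.21 CPM against 17.3, 15.4 and 14.8 (-3.09 ± 0.55), IL1B read 0.464, 0.788 and 1.299 against 6.37, 4.93 and 5.03 (-2.68 ± 0.49), and CCL5 read 299, 281 and 329.6 against 716, 714 and 697 (-1.22 ± 0.09). OSM, oncostatin M, had no count in any selumetinib library and 32 counts over the 3 DMSO libraries, so that it was at least 8.199-fold lower, with 3 counts summed over the selumetinib libraries as the limit. TNFSF10, which encodes the death ligand TRAIL, rose from 40.9, 42.5 and 46.1 to 67.5, 61.9 and 60.1 CPM (0.55 ± 0.09). Among 19 NF-kB targets and regulators 4 were higher and 3 lower, near the 13.1% and 19% of all genes (7 and 6 against DMSO day 3), and NFKBIZ, a nuclear cofactor of NF-kB, rose by 1.41.

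The called genes of class II antigen presentation all rose. Of 13 MHC class II genes 7 were higher and none lower (median 0.43; 8 higher against DMSO day 3). HLA-DRA, the alpha chain of HLA-DR, read 512, 479 and 602 CPM under selumetinib and 309.7, 403 and 392 in DMSO (log2 fold change 0.53 ± 0.09, adjusted p = 3.93e-05). HLA-DMB, which helps load peptides, read 25.1, 23.3 and 22.4 CPM against 10.7, 12.7 and 12.6 (0.97 ± 0.18), and HLA-DPB1 rose by 0.61. Of 16 class I genes 2 were higher and 2 lower, no more than the 13.1% and 19% of all genes (5 and 6 against DMSO day 3), and the number higher was 4 with DESeq2 or with library totals. Of 30 tested interferon-stimulated genes 6 were higher and 3 lower, beside the same shares of all genes. Against DMSO day 3 the counts were 9 and 6, where 28.9% and 25.2% of all genes were higher and lower. STAT2 stood at 0.62 and GBP2 at -0.67 against DMSO day 6, and the number higher was 3 without selumetinib replicate 1 or DMSO replicate 2.

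Targets of menin and KMT2A, the pair that VTP-50469 separates, moved in both directions under selumetinib. Of 27 genes 9 were higher and 6 lower, against 13.1% and 19% of all genes, with a median of 0.06. Against DMSO day 3 16 were higher and 6 lower, where 28.9% and 25.2% of all genes were, with a median of 0.42. MEIS1, a homeobox factor that menin keeps active in KMT2A-rearranged cells, read 38.3, 42.6 and 35.3 CPM under selumetinib and 27.0, 24.9 and 22.1 in DMSO and so rose (0.65 ± 0.14, adjusted p = 0.000699). HOXA9, its partner, read 37.7, 34.7 and 34.7 CPM against 53.5, 52.6 and 54.3 and fell (-0.58 ± 0.13, adjusted p = 0.000712). SENP6, a SUMO protease gene, rose from 50.01, 57.97 and 53.1 to 109, 115 and 115 CPM (1.07 ± 0.07). Among the genes of the menin and KMT2A complexes themselves, DOT1L, the histone H3 methyltransferase recruited in these leukaemias, read 87.6, 87.6 and 88.1 CPM against 149, 139.7 and 139.8 (-0.70 ± 0.07), and the elongation factor gene ELL2 rose by 0.91.

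Of 16 BCL2 family genes 3 were higher and 5 lower, not far from the 13.1% and 19% of all genes (4 and 8 against DMSO day 3). The number lower was 3 without selumetinib replicate 2, and the number higher was 1 without a low-count filter and without any of the other 5 libraries. BMF, a BH3-only killer, read 57.95, 51.7 and 46.4 CPM under selumetinib and 26.1, 23.8 and 22.3 in DMSO (1.11 ± 0.15, adjusted p = 4.82e-06). BCL2L11, which encodes BIM, a protein that ERK marks for degradation, read 64.3, 65.5 and 57.8 CPM against 63.5, 57.8 and 57.2, groups that overlapped, and was not called (0.07 ± 0.10, adjusted p = 0.634). It was called against DMSO day 3 (0.65 ± 0.10). BCL2, the survival gene, was lower against DMSO day 6 (-0.56 ± 0.09) and higher against DMSO day 3 (0.41 ± 0.09). Of 22 tested p53 targets 3 were higher and 6 lower, again near those shares (6 and 7 against DMSO day 3). CDKN1A, the inhibitor p21, read 28.4, 24.3 and 28.9 CPM against 54.6, 56.5 and 53.8 (-1.01 ± 0.14), while TP53INP1 rose from 20.02, 17.3 and 16.5 to 43.6, 37.4 and 35.5 CPM (1.12 ± 0.12). GDF15, a stress cytokine, had 3 counts in all selumetinib libraries and 164 in DMSO, a ratio of 42.02 with a 95% counting interval of 14.13 to 205.8. Its fitted log2 fold change ran from -8.59 without selumetinib replicate 2 to -4.56 without selumetinib replicate 1.

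The largest single changes included genes of no ERK list. Among genes with at least 5 CPM in 1 group, the deepest fall was that of OCSTAMP (chr20:46540946-46550574, minus strand), a fusion protein of osteoclasts, which read 0.3799, 0.243 and 0.192 CPM under selumetinib and 26.4, 32.8 and 29.1 in DMSO (log2 fold change -6.70 ± 0.37, adjusted p = 1.64e-12). GPR84, a receptor for medium-chain fatty acids, read 0.127, 0.121 and 0.0481 CPM against 5.42, 6.82 and 4.76 (-5.78 ± 0.57), and the complement receptor gene CR2 read 0.0844, 0.303 and 0.385 against 12.7, 14.004 and 10.6 (-5.62 ± 0.66). SPP1, osteopontin, read 8.48, 4.49 and 11.9 CPM against 162, 165 and 143 (-4.22 ± 0.37, adjusted p = 5.70e-07). Others of the 15 deepest falls were FCMR, PLCH1, ACOX2 and VSIG4, with log2 fold changes of -4.24, -3.87, -3.62 and -3.41. The value of ACOX2 was -4.20 without selumetinib replicate 3 and -3.25 without selumetinib replicate 1.

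The steepest rise was that of GABRA3 (chrX:152166234-152451358, minus strand), a GABA receptor subunit, which read 5.49, 5.397 and 5.29 CPM under selumetinib and 0.0867, 0.199 and 0.0768 in DMSO (5.38 ± 0.85, adjusted p = 2.64e-05). HP, haptoglobin, read 13.6, 14.4 and 12.7 CPM against 1.78, 1.06 and 1.19 (3.35 ± 0.31), where reads of its near-identical relative HPR may be included, and TMEM119, known as a microglia marker, averaged 12.7 ± 1.68 against 1.71 ± 0.4895 CPM (SD, n = 3; log2 fold change 2.88 ± 0.36). LTC4S, leukotriene C4 synthase, read 46.4, 40.6 and 39.98 CPM against 6.67, 8.81 and 6.84 (2.50 ± 0.14). PRG3, an eosinophil granule protein gene, rose by 2.59, VAT1L by 2.63, the Hedgehog factor GLI2 by 2.44, TMEM176A by 2.35, the metalloprotease gene ADAM28 by 2.34, MYBPH by 2.33 and the long noncoding RNA UCA1 by 2.33. MDFI rose by 2.24 at an adjusted p of 0.0316, and this call was lost in the fit with any of the 6 libraries left out. All 30 genes of the largest rises and falls kept their direction and their call against DMSO day 3.

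Matrix and adhesion genes were split between the steep changes. Of 23 tested matrix and protease genes 11 were lower and 4 higher, beside 19% and 13.1% of all genes. Against DMSO day 3 the counts were 10 and 6, where 25.2% and 28.9% of all genes were lower and higher. COL1A1, the collagen I alpha 1 chain, read 116, 119 and 104 CPM under selumetinib and 22.97, 22.8 and 25.4 in DMSO (2.25 ± 0.10, adjusted p = 7.90e-15), and SPARC, a collagen-binding glycoprotein, read 208, 204 and 197 against 42.3, 37.4 and 34.3 (2.42 ± 0.15). FN1, fibronectin, read 1.35, 0.485 and 1.64 CPM against 13.2, 13.5 and 11.1 (-3.39 ± 0.56), and the membrane protease gene MMP14 fell by 1.53. Of 19 tested leukocyte integrins and adhesion genes 9 were lower and 4 higher, beside 19% and 13.1% of all genes. With DMSO day 3 as the control 3 were lower and 7 higher, where 25.2% and 28.9% of all genes were. ITGA5, the fibronectin receptor chain, fell by 0.87, SELPLG, the ligand of P-selectin, rose from 98.2, 98.2 and 100.4 to 183, 181 and 188 CPM (0.90 ± 0.09), and ITGB1 went from -0.50 ± 0.06 against DMSO day 6 to 1.45 ± 0.06 against DMSO day 3. Of 9 tested keratin and junction genes 2 were higher and 2 lower (median -0.39), beside 13.1% and 19% of all genes. Against DMSO day 3 the counts were 2 and 3 (median -0.61), where 28.9% and 25.2% of all genes were higher and lower. Those higher against DMSO day 6 were KRT8 and JUP. KRT8, a keratin, read 258, 250.3 and 284 CPM against 127, 132 and 127 (1.03 ± 0.09), and the junction gene JUP rose by 0.70. COL1A1 and KRT8 are also the bulk of the epithelial and stromal marker sum given above, and the part of other cells in their rise was not tested. Among 28 genes of G-protein signalling 6 were higher and 9 lower, beside 13.1% and 19% of all genes. Against DMSO day 3 the counts were 6 and 7, where 28.9% and 25.2% of all genes were higher and lower. The monocyte chemokine receptor CCR2 rose from 5.68, 6.26 and 7.45 to 17.9, 20.3 and 26.6 CPM (1.74 ± 0.28), and RGS1, a brake on such receptors, fell from 24.96, 38.8 and 18.8 to 3.63, 6.19 and 5.15 CPM (-2.48 ± 0.27). APOE, apolipoprotein E, rose from 49.4, 45.2 and 56.3 to 103, 83.6 and 89.6 CPM (0.87 ± 0.15).

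The control was chosen on mitochondrial counts, so the values of mitochondrially encoded genes are given as a description only. All 13 were higher than in DMSO day 6 (median 1.05) and all 13 were lower than in DMSO day 3 (median -1.77). MT-CO3, a subunit of cytochrome oxidase, went from 1.09 ± 0.13 to -1.73 ± 0.13, and MT-CYB, cytochrome b, from 1.47 ± 0.23 to -1.19 ± 0.23. Among 32 nuclear genes of oxidative phosphorylation and its regulators 2 were higher and 8 lower, beside 13.1% and 19% of all genes. Against DMSO day 3 the counts were 7 and 17, where 28.9% and 25.2% of all genes were higher and lower. The number lower against DMSO day 6 was 5 when libraries were scaled by their totals and 14 in the fit of the 6 libraries alone. PPARGC1A, the coactivator of mitochondrial biogenesis, read 8.86, 9.34 and 9.04 CPM under selumetinib and 2.64, 2.78 and 2.34 in DMSO (1.81 ± 0.21, adjusted p = 2.81e-07). With mitochondrial genes removed before the fit, 2198 genes were called higher and 3094 lower.

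Whether selumetinib did the same on top of the menin inhibitor was asked with both drugs against VTP-50469 at day 6, which shares no library with the comparison above. There 2059 genes were called higher (12.4%) and 2517 lower (15.2%). Of the 2177 genes higher under selumetinib alone 34.7% were also higher and 5.51% lower, and these shared genes were 36.7% of those higher in the second comparison. Of the 3150 lower genes 41.8% were also lower and 5.49% higher, which was 52.3% of those lower in the second. When selumetinib was added SPRY4 fell by 4.95, and with selumetinib alone it fell by 3.75. For DUSP6 the log2 fold changes were -2.64 and -3.23. The MYC and nucleolar list had 23 of 25 lower and a median of -1.20 there, while of 34 replication genes 11 were lower and 3 higher and of 28 mitosis genes 1 was lower and 2 higher. With both drugs against VTP-50469 at day 3, where 15.9% of all genes were called higher and 19.2% lower, 29 replication genes were lower and 2 higher (median -0.67), and 10 mitosis genes were lower and none higher (median -0.33). Among the class II genes 9 of 13 were higher at day 6, with a median of 1.36.

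The difference of the 2 effects was itself tested. The log2 fold change of selumetinib on top of VTP-50469 at day 6, minus that of selumetinib alone, was called above 0 for 1638 genes (9.89%). It was called below 0 for 1343 (8.11%). A difference above 0 can be a smaller fall as well as a larger rise. MYC fell by 1.48 on top of the menin inhibitor and by 0.50 alone, a difference of -0.98 ± 0.09 (adjusted p = 7.57e-08). CCND1 fell by 2.78 and by 4.11, a difference of 1.34 ± 0.16 (adjusted p = 2.22e-06). CSF1R rose by 0.60 on top of VTP-50469, which had already brought it to 272 ± 20.6 CPM (SD, n = 3), and by 2.70 alone, a difference of -2.10 ± 0.14 (adjusted p = 7.42e-10). For SPRY4 (-1.20 ± 0.54, adjusted p = 0.147) and DUSP6 (0.59 ± 0.22, adjusted p = 0.0672) the difference was not called. The groups also differ in the time on drug as the labels give it, and the part of time in these differences was not tested.

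OCI-AML3 is labelled with mutant cytoplasmic NPM1 (NPM1c+) and, in its own fit, 1968 of 16384 genes were called higher under selumetinib (12%) and 2545 lower (15.5%). Of 1940 genes higher in NOMO1 and tested in OCI-AML3 36.1% were higher in both and 5.15% opposite, and of 2994 lower genes 49.4% were lower in both and 3.97% opposite. In a fit of all libraries the log2 fold change in NOMO1 minus that in OCI-AML3 was called above 0 for 870 of 18707 genes (4.65%). It was called below 0 for 927 (4.96%), 9.61% in all. Here too a difference above 0 can be a smaller fall. The MEK signature had 8 of 9 genes lower in NOMO1 and 7 lower and 1 higher in OCI-AML3, with a median of -3.68 in NOMO1 and -1.28 in OCI-AML3, and the change was lower in NOMO1 for 6 of 9 genes and higher for 1. ETV5 differed by -4.69 ± 0.34 (adjusted p = 1.95e-11) and DUSP6 by -2.02 ± 0.39 (adjusted p = 0.000524). DUSP4, chosen here after its values were seen, fell by 3.49 in NOMO1 and rose by 0.35 in OCI-AML3, a difference of -3.81 ± 0.42 (adjusted p = 2.24e-08).

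Cholesterol synthesis genes, of which 20 of 23 were lower in NOMO1, had 1 lower and 5 higher in OCI-AML3, and the difference between lines was called lower for 18 of 23. INSIG1, TRIB3 and GATA2 were chosen for this comparison after their values were seen. INSIG1 differed by -1.79 ± 0.17 (adjusted p = 7.36e-10). Amino acid and protein stress genes showed the reverse, with 10 of 24 lower in NOMO1 and 23 in OCI-AML3 and the difference called higher for 11. TRIB3 fell by 1.64 and 2.89, a difference of 1.28 ± 0.41 (adjusted p = 0.0426). GATA2 fell by 3.11 in NOMO1 and stood at -0.12 in OCI-AML3 (adjusted p = 0.886), a difference of -2.95 ± 0.43 (adjusted p = 1.58e-05). CSF1R rose by 2.70 in NOMO1 and 3.28 in OCI-AML3, and the difference was -0.55 ± 0.31 (adjusted p = 0.342), which did not pass the test.

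**Figure D5:**
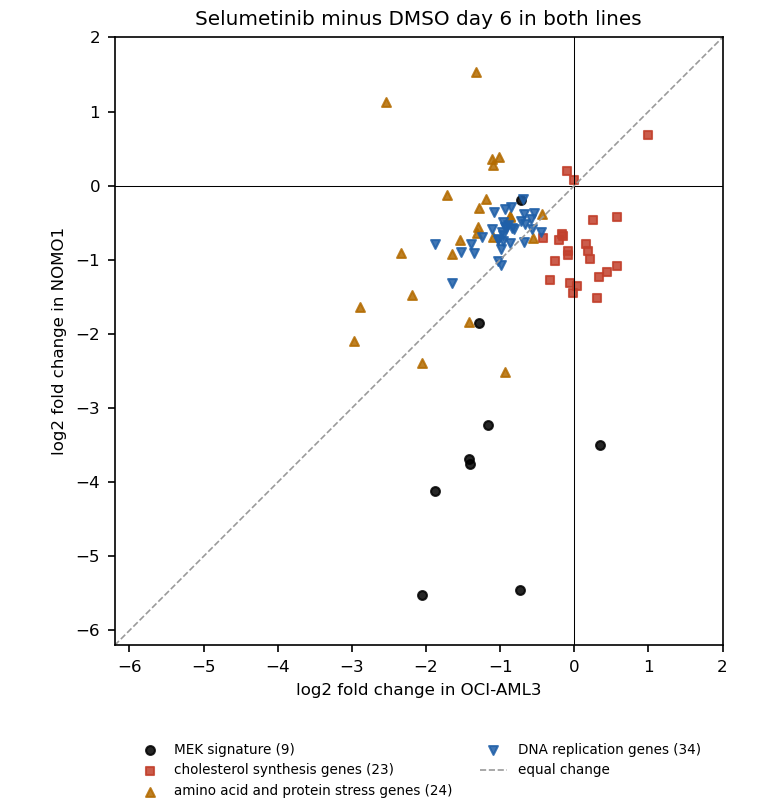
Log2 fold change, selumetinib minus DMSO day 6, of 4 gene lists in OCI-AML3 (x axis) and in NOMO1 (y axis), 1 point per gene tested in both, with the dashed line where the changes are equal. MEK signature genes (black) lay under the line with 1 exception, 20 of 23 cholesterol synthesis genes (red) were called lower in NOMO1 and 1 in OCI-AML3, and amino acid and stress genes (brown) lay mostly above the line.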

How the data were processed

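RNA was extracted with an RNeasy kit and sequenced from paired-end unstranded TruSeq libraries, per the labels' protocols, so that genes overlapping on opposite strands cannot be told apart. The authors deposited raw read counts per gene. The submitters' processing notes name FastQC 0.11.9, MultiQC 1.14, STAR 2.11a, featureCounts, Subread 2.0.6, DESeq2 1.44.0 and hg38. Of 58870 deposited lines, 58850 genes entered: 1 without a gene name (0 counts), 1 with an empty cell and 18 without a symbol were left out, as were 3 columns that match no sample.

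Counts were fitted in R 4.3.3 with edgeR 4.0.16 (filterByExpr, TMM scaling, robust quasi-likelihood fit, Benjamini-Hochberg adjustment, threshold 0.05) over the 7 NOMO1 groups, which share 1 estimate of spread. CPM values are TMM-scaled, except the marker sums, which are scaled by library totals. The lines were compared in 1 fit of all libraries. Alternatives were DESeq2 1.42.0, other scalings, filters and controls, a replicate block and leaving out each library. In simulated data of 16060 genes, the test of selumetinib against DMSO found 59.7% of 67 genes changed 1.5-fold, 83.6% of 67 changed 2-fold and 90.9% of 66 changed 4-fold, and 5.45% of its calls were false. Changed genes were drawn only from those over a low-count limit, and all groups otherwise shared their means. Far fewer genes changed than were called in the data, so these rates do not cover genes at low counts or changes as broad as those called. Same-numbered replicates of the 2 groups did not deviate together (correlations of 0.003, -0.025 and -0.015), so they were not paired. Counting intervals cover counting error only.

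Named genes were the 15 steepest rises and 15 steepest falls among called genes whose 3 against 3 values did not overlap and whose mean reached 5 CPM in a group, up to 6 called members of each list by adjusted p, and 20 followed genes. Members, the 44 lists and this rule were chosen with earlier results of these data known. Promoter windows and positions came from RefSeq and GENCODE tables. Some genes that met the rule are not reported here.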

Additional observations from a re-analysis of the deposited data

Results flagged for a closer look

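Among 20 followed genes, the effect of selumetinib differed between the lines by a test of the difference itself (edgeR, adjusted over all genes) for 7. Of all genes 9.61% were called in that test, and the followed genes were chosen with earlier results of these data known. All values are log2 differences with SE, NOMO1 minus OCI-AML3. Followed targets and brakes of ERK that fell further in NOMO1 were ETV5 at -4.69 ± 0.34 (adjusted p = 1.95e-11), SPRY4 at -2.31 ± 0.41 (adjusted p = 0.000179), CCND1 at -2.2 ± 0.26 (adjusted p = 1.04e-07) and DUSP6 at -2.02 ± 0.39 (adjusted p = 0.000524). The followed ERK outputs PHLDA1 (-0.53 ± 0.53, adjusted p = 0.680), FOS (-0.72 ± 0.47, adjusted p = 0.437) and EGR1 (1.56 ± 0.95, adjusted p = 0.396) were not called different. Among followed myeloid genes, 2 were lower by this measure: the integrin gene ITGAM at -1.98 ± 0.48 (adjusted p = 0.00572) and lysozyme, LYZ, at -1.31 ± 0.15 (adjusted p = 1.04e-07), although LYZ rose in NOMO1. CSF1R (-0.55 ± 0.31, adjusted p = 0.342) and CD14 (0.43 ± 0.67, adjusted p = 0.831) were not called different. Of 33 monocyte and macrophage genes the difference was called higher for 4 and lower for 5, where 4.65% and 4.96% of all genes were. TXNIP rose in NOMO1 (1.07 ± 0.10) and fell in OCI-AML3 (-0.36 ± 0.07), a difference of 1.47 ± 0.13 (adjusted p = 7.67e-11).

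The effect with the menin inhibitor minus that without it, in NOMO1 at day 6, differed for 8 of the 20, beside 18% of all genes. It was above 0 for ETV5 (1.82 ± 0.27, adjusted p = 0.000109), CCND1 (1.34 ± 0.16, adjusted p = 2.22e-06), HOXA9 (1.02 ± 0.19, adjusted p = 0.000453) and BCL2L11 (0.43 ± 0.14, adjusted p = 0.0308). It was below 0 for CSF1R (-2.1 ± 0.14, adjusted p = 7.42e-10), MYC (-0.98 ± 0.09, adjusted p = 7.57e-08) and KRT8 (-0.71 ± 0.13, adjusted p = 0.000279). MEIS1 was fitted at -6.05 ± 1.00 (adjusted p = 0.000154), but it had no count in the libraries with both drugs at day 6, so its fitted value depends on the prior count and is no bound. The BCL2L11 difference missed the threshold without any 1 of 6 libraries (selumetinib replicate 3, DMSO replicate 1, both drugs replicate 1 or 2, or VTP-50469 replicate 2 or 3), with adjusted p-values of 0.0564 to 0.0844.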

How the results depend on the processing

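DMSO day 3 as the control raised the genes called higher from 2177 to 4792, both DMSO groups together to 3924, and a fit of the 6 libraries alone to 3411; the cause was not tested. Of 147 named genes, 133 kept direction and call with DMSO day 3 and 9 reversed. The reversed log2 values were 0.39 for PTPN11, 1.71 for MCM2, 0.78 for TOP2A, 0.86 for FADS1, 0.15 for ITGAM, 0.41 for BCL2, 1.45 for ITGB1, -1.73 for MT-CO3 and -1.19 for MT-CYB. With both DMSO groups they were 0.51 for MCM2, 0.029 for FADS1, 0.47 for ITGB1 and -0.32 for MT-CO3. With DMSO day 3 the difference with the menin inhibitor was called for 2838 higher and 3923 lower genes, and for BCL2L11 it was -0.14; between lines the counts were 3755 and 2546.

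Leaving out 1 library gave 1569 to 1711 genes higher and 2626 to 2862 lower, 1555 to 1732 and 2062 to 2188 for selumetinib added to VTP-50469, 1286 to 1602 and 975 to 1257 for the difference with the menin inhibitor, and 665 to 855 and 687 to 879 between lines. Same-numbered replicates share only a number; the replicate block gave 2137 genes higher and 3110 lower, and of the named genes only MDFI lost its call (adjusted p = 0.0510). DESeq2 called 2544 and 3115, and all 147 named genes kept direction and call with it, with relative log expression size factors and with library totals. The median of all genes moved by at most 0.039 under other scalings. Low counts limit EPHA2, OSM and GDF15, whose folds rest on 0 to 3 selumetinib counts.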
